A study of Homo sapiens with 11 samples.

Results

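The genes described here are 42 genes of the G2 phase and of mitosis, the division of the nucleus. They were taken as a list of known symbols and not by a cut on their values, but the list was chosen with earlier results of these data known. Each had to reach a deposited log2 value of about 3.3, the log2 of 10, in 2 or more libraries. All 42 met that minimum, out of 40460 genes in the deposited table, of which 17950 met it. They were measured by RNA sequencing of hTert-HME1, a human mammary epithelial cell line immortalised with telomerase, in 11 libraries. Cells were transfected with 1 control siRNA, labelled control-2, or 1 siRNA against BRCA2, labelled BRCA2-1, and grown in mammary epithelial medium with epidermal growth factor (EGF) or without it. There were 3 control libraries with EGF (biological replicates A, B and C), 2 control libraries without EGF (A and C), 3 BRCA2 siRNA libraries with EGF and 3 without it (A, B and C each). All came from 1 cell line at passage 6, and each target had a single siRNA sequence, so what a sequence does through its target and what it does through other RNAs cannot be told apart. The labels do not say whether the replicates were separate cultures. The p values therefore measure the spread between these libraries, some of which may be technical.

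A cell enters mitosis when the kinase CDK1, bound to cyclin A or B and freed of inhibitory phosphates by CDC25 phosphatases, passes a threshold of activity. Polo-like and Aurora kinases, kinesin motors and kinetochore proteins then build the spindle and attach the chromosomes. The spindle assembly checkpoint holds back the anaphase-promoting complex until attachment is complete, and that complex then marks securin and the cyclins for destruction. Most of these genes are transcribed late in the cell cycle. Many of their promoters carry a cell cycle genes homology region (CHR), which the MuvB complex recognises through LIN54 together with MYBL2 and FOXM1 or, in resting cells, with E2F4 and pocket proteins, and CCAAT boxes, which bind NF-Y. EGF is a mitogen for mammary epithelial cells in culture, and BRCA2 is a protein of homologous recombination.

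The promoter letters of 6 members are shown because these genes span the range of responses described further on. CDC20 had the largest fall on EGF withdrawal, CCNB2, PLK1 and CENPA also fell and were called in the interaction, and KIF20A and MKI67 did not pass the test. Each sequence is the 150 bases before the start in RefSeq on GRCh38.p14, 5′ to 3′ on the gene's strand. Capitals mark CHR letters (TTTGAA or TTCGAA) and CCAAT boxes on either strand, so that a box on the opposite strand reads ATTGG.
CDC20, chr1:43358831-43358980, + strand: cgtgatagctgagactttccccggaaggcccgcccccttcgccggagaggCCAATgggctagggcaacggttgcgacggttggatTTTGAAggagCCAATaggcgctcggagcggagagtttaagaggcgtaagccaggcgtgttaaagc
CCNB2, chr15:59104996-59105145, + strand: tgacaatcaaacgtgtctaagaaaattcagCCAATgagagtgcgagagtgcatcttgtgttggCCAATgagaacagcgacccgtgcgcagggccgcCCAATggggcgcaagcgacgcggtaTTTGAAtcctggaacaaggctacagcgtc
PLK1, chr16:23678739-23678888, + strand: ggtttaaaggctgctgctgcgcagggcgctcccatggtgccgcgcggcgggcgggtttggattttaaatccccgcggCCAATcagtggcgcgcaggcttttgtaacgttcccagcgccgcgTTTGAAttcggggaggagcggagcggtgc
CENPA, chr2:26785906-26786055, + strand: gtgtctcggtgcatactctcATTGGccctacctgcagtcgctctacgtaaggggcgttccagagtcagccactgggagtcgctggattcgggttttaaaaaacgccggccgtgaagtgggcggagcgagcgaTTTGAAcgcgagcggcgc
KIF20A, chr5:138178962-138179111, + strand: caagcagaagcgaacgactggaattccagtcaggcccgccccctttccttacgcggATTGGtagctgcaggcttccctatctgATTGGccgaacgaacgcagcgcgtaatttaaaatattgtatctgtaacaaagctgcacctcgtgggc
MKI67, chr10:128126424-128126573, - strand: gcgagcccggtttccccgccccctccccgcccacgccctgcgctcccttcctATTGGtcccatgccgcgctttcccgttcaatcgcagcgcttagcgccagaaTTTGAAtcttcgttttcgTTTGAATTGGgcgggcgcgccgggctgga

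In CCNB2 and PLK1 the TTTGAA began at position -29 from the start, in CENPA at -18 and in CDC20 at -65. CCNB2 held 3 CCAAT boxes in the stretch shown. KIF20A held 2 boxes and no CHR letters. MKI67 held 2 TTTGAA, and its second one overlapped a CCAAT box on the opposite strand by its last base. Over the whole promoter windows, which run from 250 bases before the start to 50 after it, 35 of the 42 members matched an entry, with 45 promoters. At least 1 promoter of 27 of these 35 members (77.1%) held CHR letters on either strand, as did 66.7% of the 45 promoters, against 16.4% of all 35116 promoters of the same length and 12.5% of the 16545 that belong to genes tested here. A CCAAT box was present in 30 of the 35 (85.7%) and in 77.8% of their promoters, against 34.6% of all promoters. Both were present in 24 of the 35 (68.6%) and in 57.8% of their promoters, against 6.38% of all promoters and 4.88% of those of genes tested. These are matches of letters and not measured binding sites.

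The table gives log2 values, and one unit is a doubling if the unnamed transform behind them leaves high values in proportion. Without counts the sequencing depth is unknown, and no counting interval can be given. BRCA2, the siRNA target, read 12.45, 12.13 and 12.48 in the control libraries with EGF (A, B, C), 11.44 and 11.65 in those without EGF (A, C), 12.43, 12.37 and 12.40 with EGF under the BRCA2 siRNA label and 12.48, 12.27 and 12.11 in those without EGF. BRCA2 RNA was thus no lower under the BRCA2 siRNA label. Its difference with EGF was 0.05 ± 0.12 (adjusted p = 0.999), and without EGF it was 0.74 ± 0.13 higher under that label (adjusted p = 0.00397). Those libraries are named by their label throughout, and no direction below is taken as an effect of lower BRCA2 RNA. BRCA2 itself fell by 0.81 ± 0.13 on EGF withdrawal with control siRNA (adjusted p = 0.000444), as most of the members did.

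Markers of basal mammary epithelium were present in all libraries, with KRT5 between 17.21 and 18.78 and TP63 between 13.01 and 14.04, as were the simple epithelial keratins KRT8 (10.51 to 11.41) and KRT18 (10.94 to 11.98), while EPCAM (0.15 to 0.67) and KRT19 (1.25 to 1.72), from the same list of epithelial markers, stayed under the minimum of 3.3. Of the leukocyte and endothelial markers, CD3E, CD68 and CDH5 were below 0 in every library, PTPRC read 2.33 to 3.10 and VWF 2.74 to 3.70, and the endothelial receptor KDR read 7.31 to 10.40. Several markers moved with EGF. Of 7 fibroblast markers tested, 6 were higher and 0 lower on withdrawal with control siRNA, among them COL1A1 (3.05 ± 0.24, adjusted p = 1.11e-05), and 4 were lower in the BRCA2 siRNA libraries than in the control libraries without EGF. The log2 of their summed level was 10.73 to 11.10 in the control libraries with EGF and 13.05 to 13.17 without it, and 10.88 to 11.05 and 11.85 to 12.57 in the corresponding BRCA2 siRNA libraries, while COL1A2 stayed between 1.31 and 1.84. The epithelial cadherin CDH1 (3.76 ± 0.26), the basal keratin KRT14 (1.37 ± 0.11) and the endothelial marker KDR (2.51 ± 0.36) also rose on withdrawal with control siRNA, each past the threshold, and were lower under BRCA2 siRNA without EGF. Other epithelial markers went the other way. With control siRNA, the mean of KRT18 fell from 11.87 with EGF to 10.94 without it, and that of ITGA6 from 16.24 to 15.84. Of the 6 basal markers 4 rose and 1 fell, and of 3 general epithelial markers tested 2 rose and 1 fell. Without EGF, KRT18 was higher under BRCA2 siRNA (mean 11.38). The summed basal markers read 18.43 to 18.49 with EGF and 19.46 to 19.65 without it in control libraries, and 18.50 to 18.66 and 19.10 to 19.31 in BRCA2 siRNA libraries. The part of these shifts in the results below was not tested.

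EGF withdrawal with control siRNA lowered nearly all of the mitotic genes. By limma with Benjamini-Hochberg adjustment over the 17950 genes tested and a threshold of 0.05, 39 of the 42 members fell and 0 rose, where 26.1% of all genes fell and 24.7% rose. The median difference of the 42 was -0.97 on the log2 scale, with a range from -1.53 in CDC20 to -0.21 in CDC25B, and the median of all genes was 0.00. In 40 of the 42, both libraries without EGF lay below all 3 with EGF, which held for 33.6% of all genes. In these bulk samples, fewer cells in G2 and mitosis and less of these RNAs per cell cannot be told apart.

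**Figure D1:**
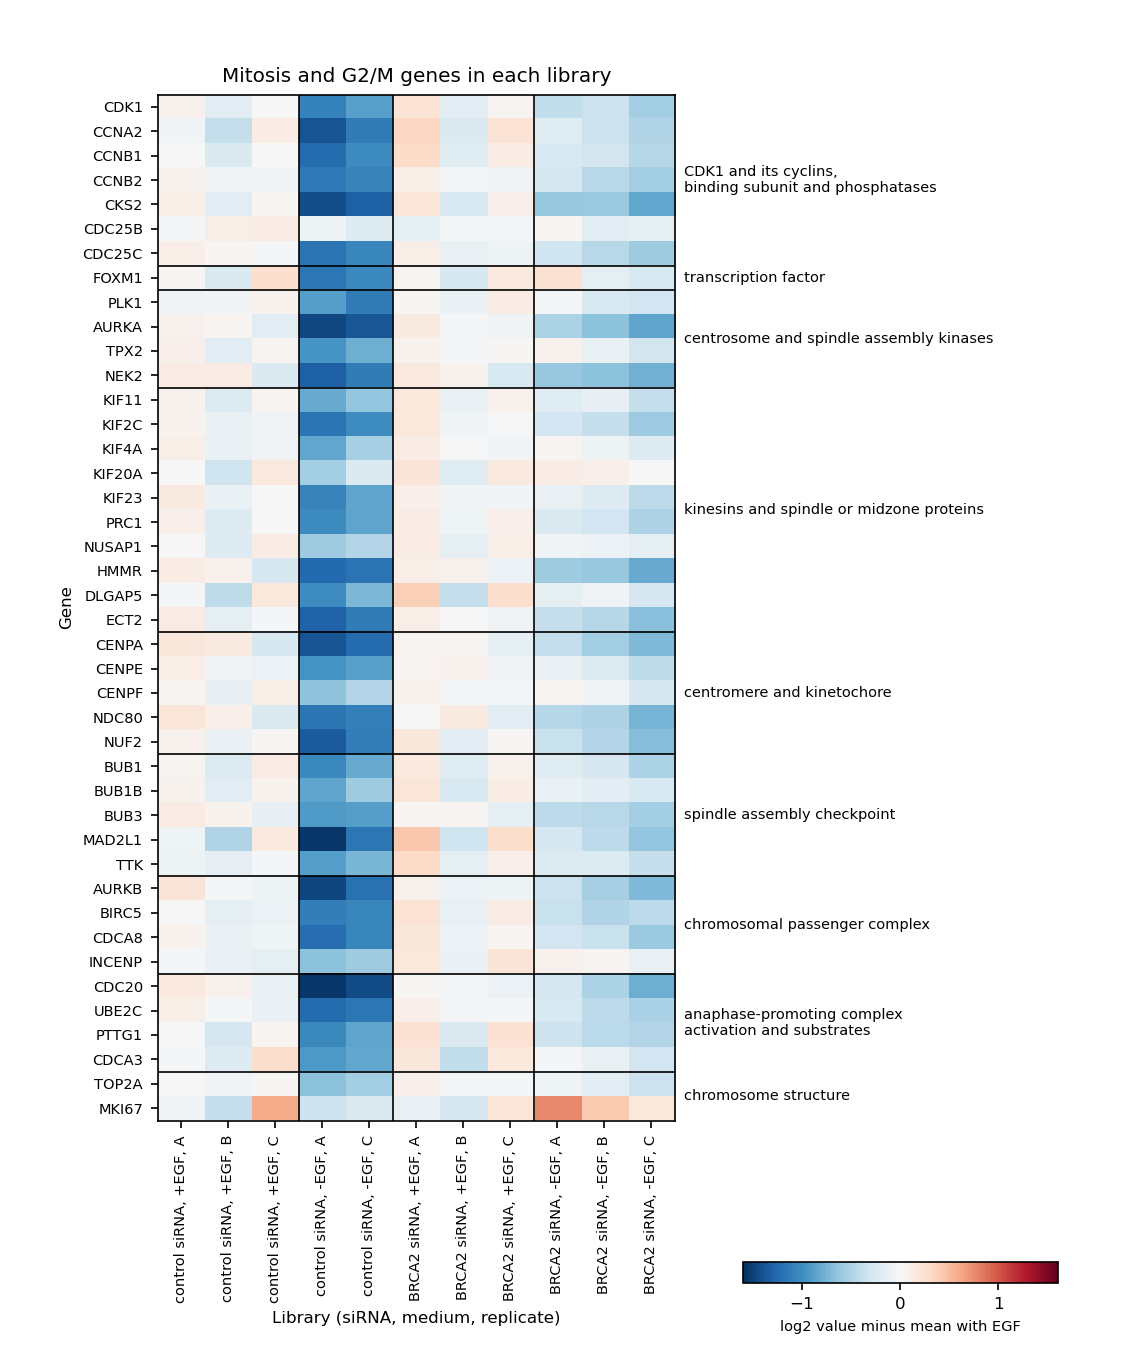
Log2 value of each of the 42 genes (down, grouped by role) in each of the 11 libraries (across), as the difference from the gene's mean over the 6 libraries with EGF; blue is lower and red is higher. The 2 control libraries without EGF are blue in almost every gene (medians -1.07 and -0.95), the 3 BRCA2 siRNA libraries without EGF are paler (medians -0.23, -0.32 and -0.48), and the libraries with EGF have medians between -0.12 and 0.12.

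CDK1 and the proteins that act on it fell in 6 of 7 cases, with a median of -1.09. CDK1 itself fell by 0.95 ± 0.13 (1.93-fold, adjusted p = 0.000143). CCNB2, the B2 cyclin, read 12.32, 12.23 and 12.22 with EGF and 11.12 and 11.21 without it. Its fall of 1.09 ± 0.09 (2.13-fold, adjusted p = 1.37e-05) had the smallest p of the group. CKS2, the small subunit that docks CDK1 on its substrates, read 12.28, 12.01 and 12.22 in the libraries with EGF against 10.76 and 10.87 in those without and fell by 1.35 ± 0.14 (2.56-fold, adjusted p = 2.93e-05). CDC25C, a phosphatase that activates CDK1, read 9.89, 9.82 and 9.75 (with EGF) and 8.60 and 8.74 (without EGF) and fell by 1.15 ± 0.11 (2.22-fold, adjusted p = 2.29e-05). All of these had separate ranges with and without EGF. CCNA2, the A cyclin, fell by 1.15 ± 0.18 (2.22-fold, adjusted p = 0.000403). CCNB1, the B1 cyclin, fell by 1.05 ± 0.14 (2.07-fold, adjusted p = 0.000131). The exception was CDC25B, another phosphatase of that family, which read 12.11, 12.22 and 12.24 with EGF and 12.04 and 11.92 without it. Its 5 values did not overlap between the media, but the difference was only -0.21 ± 0.09 (adjusted p = 0.0717).

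FOXM1, the forkhead factor that drives G2/M transcription, read 10.91, 10.67 and 11.16 in the libraries with EGF against 9.74 and 9.86 in those without. It fell by 1.11 ± 0.18 (2.16-fold, adjusted p = 0.000433), with control libraries that spread by 0.25 (SD) with EGF. Among the kinases and partners that mature the centrosome and assemble the spindle, 4 of 4 fell. AURKA, the Aurora kinase of the spindle poles, read 12.85, 12.82 and 12.61 (with EGF) and 11.33 and 11.42 (without EGF) and fell by 1.39 ± 0.11 (2.62-fold, adjusted p = 1.16e-05), the smallest p of all 42 members. TPX2, which activates AURKA on spindle microtubules, read 13.82, 13.58 and 13.79 with EGF and 12.80 and 12.97 without it and fell by 0.84 ± 0.11 (1.80-fold, adjusted p = 0.00015). PLK1, the polo-like kinase, read 10.90, 10.92 and 11.02 in the libraries with EGF against 10.08 and 9.85 in those without and fell by 0.98 ± 0.11 (1.98-fold, adjusted p = 5.23e-05). NEK2, a kinase of centrosome separation, fell by 1.22 ± 0.14 (2.33-fold, adjusted p = 5.92e-05). The 2 libraries without EGF stood clear below the other 3 in each.

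Among kinesins and proteins of the spindle and its midzone, 9 of 10 fell, with a median of -0.83. ECT2, the exchange factor that switches on RhoA for cytokinesis, read 13.64, 13.35 and 13.49 (with EGF) and 12.22 and 12.39 (without EGF). It fell by 1.19 ± 0.11 (2.28-fold, adjusted p = 2.3e-05). KIF2C, a kinesin that shortens microtubules, read 12.45, 12.28 and 12.34 with EGF and 11.22 and 11.38 without it and fell by 1.06 ± 0.11 (2.08-fold, adjusted p = 2.89e-05). KIF23, a motor of the central spindle, read 13.49, 13.24 and 13.34 in the libraries with EGF against 12.28 and 12.50 in those without and fell by 0.96 ± 0.11 (1.95-fold, adjusted p = 6.04e-05). HMMR, a spindle protein that also binds hyaluronan, read 12.94, 12.89 and 12.57 (with EGF) and 11.59 and 11.65 (without EGF) and fell by 1.18 ± 0.12 (2.27-fold, adjusted p = 3.14e-05). These 4 showed no overlap between media. KIF11, KIF4A, PRC1, NUSAP1 and DLGAP5 had differences from -0.89 to -0.49. The exception was KIF20A, a kinesin of the spindle midzone, which read 12.63, 12.30 and 12.78 with EGF and 12.08 and 12.39 without it. Its C library without EGF lay above the B library with EGF, and the difference of -0.33 ± 0.16 did not pass (adjusted p = 0.0939).

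At the centromere and kinetochore 5 of 5 fell. CENPA, the histone variant that marks centromeres, read 10.73, 10.69 and 10.28 in the libraries with EGF against 9.16 and 9.32 in those without and fell by 1.33 ± 0.14 (2.52-fold, adjusted p = 4.24e-05). NUF2, part of the NDC80 complex that grips microtubules, read 11.64, 11.46 and 11.58 (with EGF) and 10.24 and 10.46 (without EGF) and fell by 1.21 ± 0.13 (2.31-fold, adjusted p = 3.87e-05). CENPE, a kinetochore kinesin, read 13.53, 13.38 and 13.34 with EGF and 12.47 and 12.56 without it and fell by 0.90 ± 0.10 (1.87-fold, adjusted p = 4.72e-05). CENPF had the smallest fall of the group, from 14.76, 14.59 and 14.82 in the libraries with EGF against 14.09 and 14.26 in those without (-0.55 ± 0.11, adjusted p = 0.00155). The checkpoint genes fell in 5 of 5 cases as well. BUB3, which loads other checkpoint proteins on kinetochores, read 14.00, 13.92 and 13.75 (with EGF) and 12.97 and 12.99 (without EGF), and its fall of 0.91 ± 0.10 (adjusted p = 3.54e-05) had the smallest p of these genes. MAD2L1, the inhibitor of CDC20, read 11.82, 11.40 and 12.04 with EGF and 10.33 and 10.73 without it and fell by 1.22 ± 0.23 (2.33-fold, adjusted p = 0.00132), with a wider spread than the rest.

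The chromosomal passenger complex, which corrects faulty attachments, fell in 4 of 4 members. Its kinase AURKB read 10.96, 10.74 and 10.67 in the libraries with EGF against 9.28 and 9.56 in those without and fell by 1.37 ± 0.13 (2.59-fold, adjusted p = 2.3e-05). CDCA8 (borealin) read 11.73, 11.56 and 11.60 (with EGF) and 10.45 and 10.62 (without EGF) and fell by 1.09 ± 0.11 (2.14-fold, adjusted p = 3.54e-05). INCENP, the scaffold, read 11.20, 11.12 and 11.09 with EGF and 10.56 and 10.66 without it and had the smallest fall of the complex, -0.52 ± 0.11 (adjusted p = 0.00181). BIRC5 (survivin) fell by 1.00 ± 0.11 (2.00-fold, adjusted p = 4.62e-05).

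Activators and substrates of the anaphase-promoting complex held the largest fall of the set. CDC20, the activator that the checkpoint restrains, read 12.95, 12.86 and 12.68 in the libraries with EGF against 11.25 and 11.37 in those without and fell by 1.53 ± 0.13 (2.88-fold, adjusted p = 1.62e-05). UBE2C, the ubiquitin-conjugating enzyme of the complex, read 11.62, 11.51 and 11.42 (with EGF) and 10.30 and 10.37 (without EGF) and fell by 1.18 ± 0.10 (2.27-fold, adjusted p = 1.22e-05). PTTG1 (securin) fell by 0.86 ± 0.14 (1.82-fold, adjusted p = 0.000564), and CDCA3, a substrate of the complex, read 9.31, 9.13 and 9.62 with EGF and 8.42 and 8.51 without it and fell by 0.89 ± 0.19 (1.85-fold, adjusted p = 0.0024). TOP2A, the topoisomerase that untangles chromosomes, read 14.95, 14.90 and 14.96 in the libraries with EGF against 14.30 and 14.40 in those without and fell by 0.59 ± 0.09 (1.50-fold, adjusted p = 0.0004). MKI67, the surface protein of mitotic chromosomes known as Ki-67, read 15.12, 14.79 and 15.76 (with EGF) and 14.83 and 14.93 (without EGF). Its libraries with EGF enclosed both values without EGF, and the difference of -0.34 ± 0.25 did not pass (adjusted p = 0.271).

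**Figure D2:**
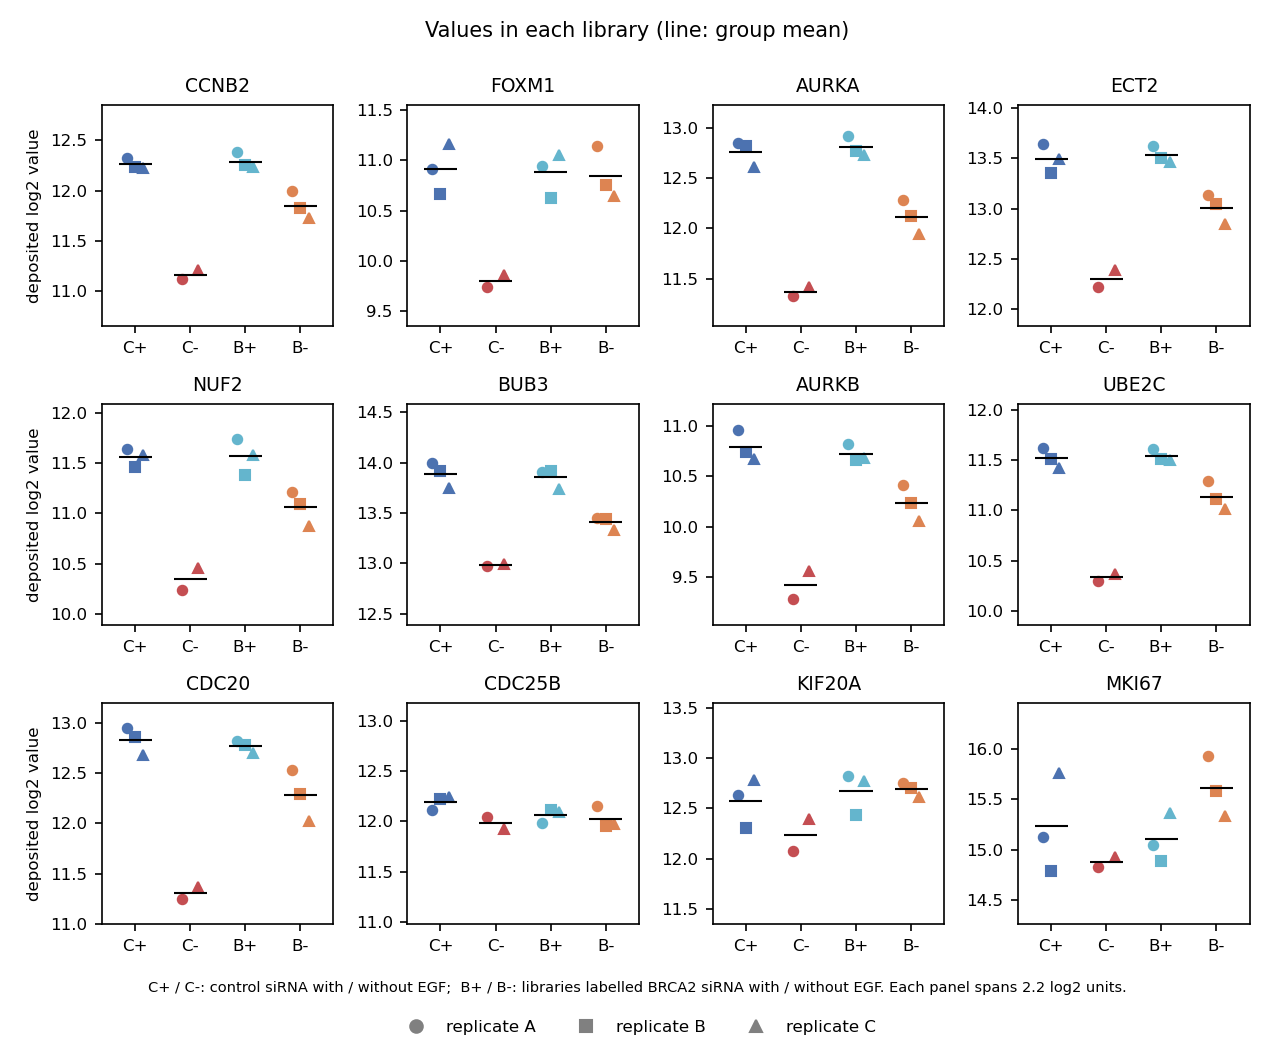
Deposited log2 values of 12 members (vertical axis, each panel 2.2 units high) in the 4 groups (horizontal axis), with replicate letters as marker shapes and group means as lines. In CCNB2, AURKA, NUF2 and BUB3 the BRCA2 siRNA libraries without EGF lie between the control libraries without EGF and all libraries with EGF, while FOXM1 without EGF under BRCA2 siRNA (10.65 to 11.14) overlaps its values with EGF.

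With BRCA2 siRNA, EGF withdrawal lowered about as many of the members as it left uncalled. Of the 42, 22 fell and 0 rose, where 13.8% of all genes fell and 13.4% rose. The median difference was -0.40, with a range from -0.69 to 0.52, and in 26 of the 42 all 3 libraries without EGF lay below all 3 with EGF (24.4% of all genes). All 22 were among the 39 that fell with control siRNA, which makes 22 of 22 and 22 of 39. Since that list holds 39 of the 42, most of any 22 members would be on it. The count rests on few libraries: it was 13 without replicate A of the group with EGF and also 13 without replicate C of the group without EGF, and 0 when only replicates B and C were used.

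CKS2, AURKA and HMMR had the largest falls here. CKS2 read 12.38, 11.94 and 12.27 with EGF and 11.58, 11.59 and 11.35 without it, a fall of 0.69 ± 0.12 (adjusted p = 0.00313). AURKA read 12.92, 12.77 and 12.73 in the libraries with EGF against 12.28, 12.12 and 11.94 in those without and fell by 0.69 ± 0.10 (1.61-fold, adjusted p = 0.0014), the smallest p of the set. HMMR read 12.92, 12.90 and 12.73 (with EGF) and 12.26, 12.23 and 12.02 (without EGF) and fell by 0.69 ± 0.11 (1.61-fold, adjusted p = 0.00195). Their ranges did not overlap between media. Among the CDK1 group 5 of 7 fell. CCNB2 read 12.38, 12.25 and 12.23 with EGF and 12.00, 11.83 and 11.73 without it and fell by 0.43 ± 0.08 (1.35-fold, adjusted p = 0.00462), and CDC25C read 9.89, 9.66 and 9.70 in the libraries with EGF against 9.46, 9.34 and 9.21 in those without and fell by 0.41 ± 0.10 (1.33-fold, adjusted p = 0.012). The 2 that did not pass were CCNA2, at 12.81, 12.24 and 12.69 (with EGF) and 12.28, 12.14 and 11.99 (without EGF) (-0.44 ± 0.16, adjusted p = 0.0628), and CDC25B, at 11.98, 12.11 and 12.09 with EGF and 12.15, 11.95 and 11.97 without it (-0.04 ± 0.08, adjusted p = 0.73).

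FOXM1 was not detectably lower without EGF in the BRCA2 siRNA libraries. It read 10.94, 10.63 and 11.05 in the libraries with EGF against 11.14, 10.75 and 10.65 in those without, with replicate A without EGF above replicates A, B and C with EGF, and the difference was -0.03 ± 0.16 (95% interval -0.38 to 0.32, adjusted p = 0.894). PLK1 read 10.86 (B) and 11.08 (C) with EGF, with A between them, and 10.93, 10.72 and 10.66 without it (-0.21 ± 0.10, adjusted p = 0.139) and TPX2 13.80, 13.71 and 13.77 (with EGF) and 13.82, 13.64 and 13.46 (without EGF) (-0.12 ± 0.10, adjusted p = 0.392). In PLK1, replicate A without EGF lay within the values with EGF, and in TPX2 it lay above them. NEK2 fell by 0.67 ± 0.13 (1.59-fold, adjusted p = 0.00424). Of the 10 kinesins and midzone proteins 4 fell, namely HMMR, ECT2, KIF2C and PRC1. ECT2 read 13.62, 13.50 and 13.46 with EGF and 13.14, 13.05 and 12.85 without it and fell by 0.51 ± 0.10 (1.43-fold, adjusted p = 0.00518). KIF2C read 12.57, 12.35 and 12.39 in the libraries with EGF against 12.08, 12.01 and 11.82 in those without and fell by 0.46 ± 0.09 (1.38-fold, adjusted p = 0.00598). KIF23 read 13.42, 13.28 and 13.30 (with EGF) and 13.23, 13.14 and 12.93 (without EGF), with a difference of -0.24 ± 0.10 that did not pass (adjusted p = 0.0999). KIF20A read 12.82, 12.43 and 12.77 with EGF and 12.75, 12.70 and 12.61 without it, level with its values with EGF (0.01 ± 0.14, adjusted p = 0.96).

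At the kinetochore, CENPA read 10.59, 10.59 and 10.40 in the libraries with EGF against 10.16, 9.99 and 9.84 in those without and fell by 0.52 ± 0.13 (1.44-fold, adjusted p = 0.0138), and NUF2 read 11.74, 11.38 and 11.58 (with EGF) and 11.21, 11.09 and 10.88 (without EGF) and fell by 0.51 ± 0.11 (1.42-fold, adjusted p = 0.00962). NDC80, the partner of NUF2, fell by 0.55 ± 0.12 (1.47-fold, adjusted p = 0.00925). CENPE read 13.46, 13.50 and 13.37 with EGF and 13.33, 13.21 and 13.03 without it and missed the threshold narrowly (-0.26 ± 0.09, adjusted p = 0.0519), and CENPF read 14.79, 14.71 and 14.71 in the libraries with EGF against 14.78, 14.68 and 14.47 in those without (-0.09 ± 0.10, adjusted p = 0.492). Of the checkpoint genes BUB3 and TTK fell. BUB3 read 13.91, 13.92 and 13.74 (with EGF) and 13.45, 13.44 and 13.33 (without EGF) and fell by 0.45 ± 0.09 (1.37-fold, adjusted p = 0.00429), and MAD2L1 read 12.31, 11.56 and 12.17 with EGF and 11.61, 11.47 and 11.26 without it, where a spread of 0.40 (SD) with EGF went with a difference of -0.57 ± 0.21 that did not pass (adjusted p = 0.0631). In the passenger complex AURKB read 10.82, 10.66 and 10.68 in the libraries with EGF against 10.41, 10.23 and 10.06 in those without and fell by 0.49 ± 0.12 (1.40-fold, adjusted p = 0.0121), CDCA8 read 11.85, 11.58 and 11.70 (with EGF) and 11.37, 11.31 and 11.07 (without EGF) and fell by 0.46 ± 0.10 (1.37-fold, adjusted p = 0.00895), and INCENP read 11.40, 11.12 and 11.43 with EGF and 11.29, 11.28 and 11.11 without it and did not pass (-0.09 ± 0.09, adjusted p = 0.488).

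CDC20 read 12.82, 12.78 and 12.70 in the libraries with EGF against 12.53, 12.29 and 12.02 in those without and fell by 0.49 ± 0.12 (1.40-fold, adjusted p = 0.0136). The 3 libraries without EGF lay below the 3 with EGF, replicate C lowest. UBE2C read 11.61, 11.51 and 11.50 (with EGF) and 11.29, 11.11 and 11.01 (without EGF) and fell by 0.41 ± 0.09 (1.33-fold, adjusted p = 0.00794). CDCA3 read 9.52, 8.95 and 9.51 with EGF and 9.31, 9.22 and 9.04 without it and did not pass (-0.14 ± 0.17, adjusted p = 0.562). TOP2A read 15.02, 14.92 and 14.93 in the libraries with EGF against 14.88, 14.78 and 14.60 in those without, with separate ranges and a difference of -0.21 ± 0.08 that did not pass (adjusted p = 0.0854). MKI67 went the other way. It read 15.05, 14.89 and 15.36 (with EGF) and 15.93, 15.58 and 15.33 (without EGF), and the difference of 0.52 ± 0.22 (95% interval 0.02 to 1.01) did not pass (adjusted p = 0.106). It passed in limma fits of only the groups compared (adjusted p = 0.0477) and without replicate C of the control libraries with EGF (adjusted p = 0.0284).

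**Figure D3:**
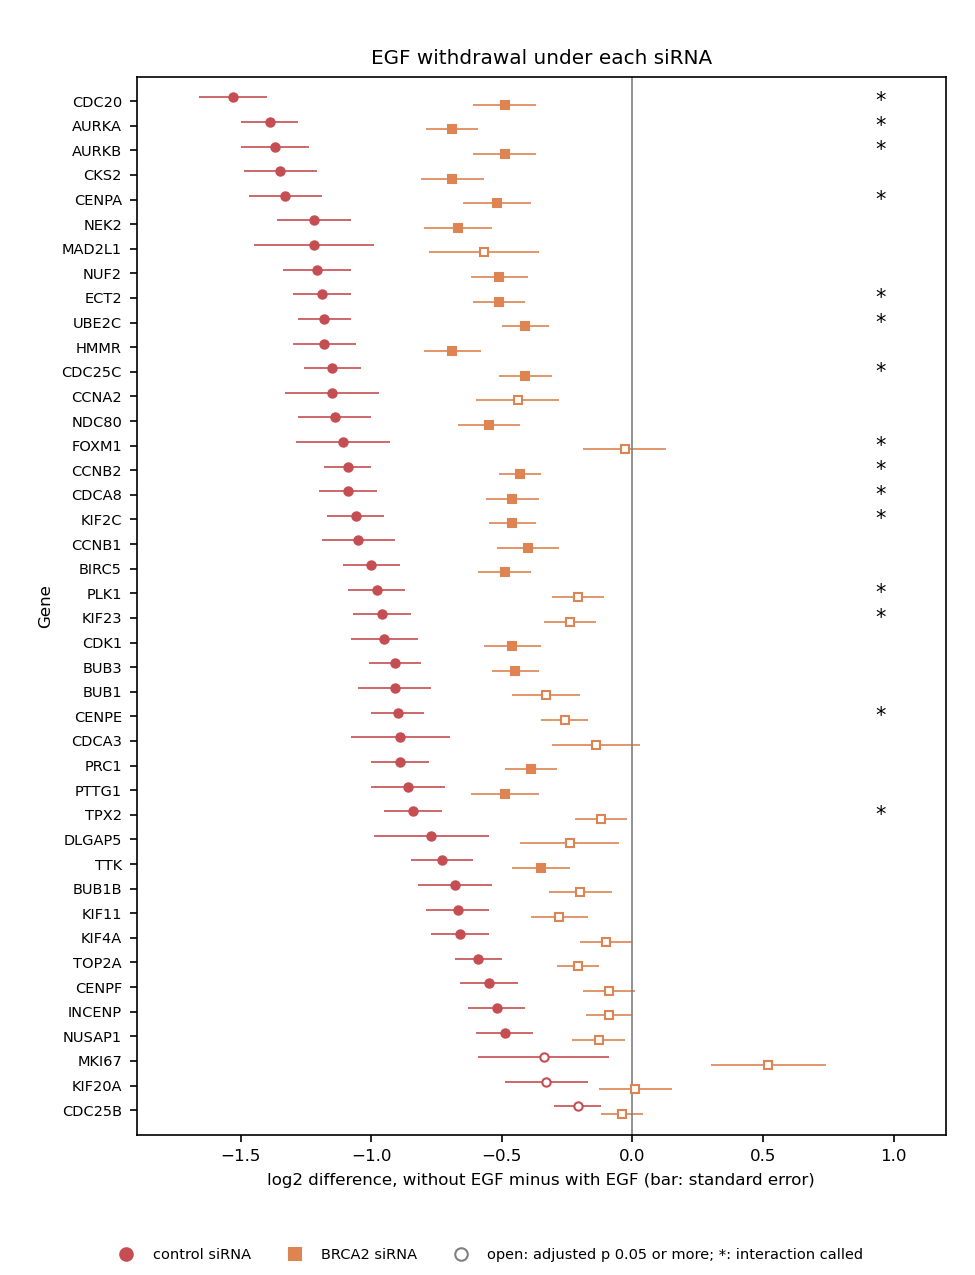
Log2 difference between libraries without and with EGF (horizontal axis, bars are standard errors) for each of the 42 genes (vertical axis), with control siRNA (circles) and BRCA2 siRNA (squares); open marks did not pass the test and asterisks mark genes called in the interaction. In all 42 genes the square lies to the right of the circle, and MKI67 has the only square far to the right of 0 (0.52).

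In the presence of EGF, no member differed detectably between the libraries labelled BRCA2 siRNA and the control libraries. By limma 0 of 42 passed, where 1 of 17950 genes did (0.00557%), and 0 members had an unadjusted p under 0.05, where 508 genes did. The median difference was 0.03. The range ran from -0.13 in MKI67 and CDC25B to 0.26 ± 0.21 in MAD2L1, whose 95% interval was -0.19 to 0.72. CCNA2 differed by 0.21 ± 0.16 (95% interval -0.15 to 0.56) and CDC25B by -0.13 ± 0.08 (-0.31 to 0.05). Intervals of this width leave room for changes of up to 0.72 (MAD2L1) among these members. With EGF, the B libraries of both siRNAs deviated together, as did the C libraries (r = 0.70 in each pair over all genes tested). The fit takes no account of the letters, so such shared deviations count as spread in this comparison. With the letters as a replicate block 0 members passed as well.

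Without EGF, the mitotic genes were higher in the BRCA2 siRNA libraries than in the control libraries. Of the 42, 39 were higher and 0 lower, where 11.2% of all genes were higher and 9.36% lower. The median difference was 0.67, with a range from 0.04 in CDC25B to 1.04 in FOXM1, and in 41 of the 42 all 3 BRCA2 siRNA libraries lay above both control libraries (33.2% of all genes). This comparison shares its control libraries with EGF withdrawal under control siRNA, where the same genes were low, so the counts are not independent of each other. Within replicate A the median difference was 0.86 and within replicate C it was 0.44, and all 42 members were higher in each. The control group without EGF holds only 2 libraries, and without its replicate A 11 members passed. With only replicates B and C 0 passed.

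FOXM1 was 1.04 ± 0.18 higher (2.06-fold, adjusted p = 0.00366). CDC20 was 0.97 ± 0.13 higher (1.96-fold, adjusted p = 0.00193), and AURKB 0.81 ± 0.13 higher (1.76-fold, adjusted p = 0.00296). Their values in each library are given above, and in each the 3 BRCA2 siRNA libraries stood clear above both control libraries. PLK1 was 0.81 ± 0.11 higher (1.75-fold, adjusted p = 0.00196) and UBE2C 0.80 ± 0.10 higher (1.74-fold, adjusted p = 0.00147), the smallest p of the set. In the CDK1 group 6 of 7 were higher, from CDK1 (0.55 ± 0.13) to CCNA2 (0.91 ± 0.18). All 5 kinetochore members, all 5 checkpoint members and all 4 members of the passenger complex were higher, with medians of 0.67, 0.54 and 0.69. Those that did not pass were CDC25B (0.04 ± 0.09, adjusted p = 0.78), KIF20A (0.45 ± 0.16, adjusted p = 0.0612) and MKI67 (0.73 ± 0.25, adjusted p = 0.0592). For KIF20A and MKI67 the groups did not overlap, and MKI67 had the largest error of the set.

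The difference between the withdrawal responses was itself tested as the interaction, that is, the withdrawal difference under BRCA2 siRNA less the one under control siRNA. It was positive in all 42 members, with a median of 0.62 and a range from 0.17 to 1.08. Of these, 15 passed the threshold and 0 passed in the other direction, where 1.38% of all genes passed upwards and 1.93% downwards. An unadjusted p under 0.05 was found for 37 members, and for 3982 of the 17950 genes tested. Among the 15, the largest differences were FOXM1 (1.08 ± 0.24, adjusted p = 0.0373), CDC20 (1.04 ± 0.18, adjusted p = 0.0242), AURKB (0.88 ± 0.18, adjusted p = 0.0307) and CENPA (0.81 ± 0.19, adjusted p = 0.0478). MKI67 had a difference of 0.86 ± 0.34, with a wide error, and did not pass (adjusted p = 0.166).

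By role, 2 of the 15 were in the CDK1 group, CCNB2 (0.66 ± 0.13, adjusted p = 0.0287) and CDC25C (0.74 ± 0.15, adjusted p = 0.0307). The spindle assembly kinases gave 3, PLK1 (0.78 ± 0.15, adjusted p = 0.0291), TPX2 (0.72 ± 0.15, adjusted p = 0.0336) and AURKA (0.70 ± 0.15, adjusted p = 0.0372). The kinesins and midzone proteins gave KIF23 (0.73 ± 0.15), ECT2 (0.67 ± 0.15) and KIF2C (0.59 ± 0.14). CENPA was joined by CENPE (0.64 ± 0.13) at the kinetochore, AURKB by CDCA8 (0.64 ± 0.15) in the passenger complex, and CDC20 by UBE2C (0.77 ± 0.13), which had the smallest adjusted p of the 42 (0.0238). Of the 5 checkpoint genes 0 passed, with differences from 0.38 to 0.65, and NUF2 missed the threshold narrowly (0.70 ± 0.17, adjusted p = 0.0507). These calls depended on single libraries. The count was 0 when replicate A or C of the control libraries without EGF, replicate A of the control libraries with EGF, replicate B of the BRCA2 siRNA libraries without EGF or replicate C of those with EGF was left out. It was 1 without replicate A of the BRCA2 siRNA libraries without EGF, 4 and 8 without replicates A and B of those with EGF, and 0 with only replicates B and C. It was 6 in a fit with no mean-variance trend. The calls over all 17950 genes were lost in such fits as well. No gene passed without replicate A of the control libraries with EGF or without replicate C of the BRCA2 siRNA libraries with EGF. Without replicate B of the BRCA2 siRNA libraries without EGF, 1 gene passed. The median of the 42 was 0.57, 0.61 and 0.59 in these fits. It was 0.53 and 0.69 without replicate A or C of the control libraries without EGF.

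The levels formed a staircase in many members. In 25 of the 42 (59.5%), both control libraries without EGF lay below all 3 BRCA2 siRNA libraries without EGF, which in turn lay below all 6 libraries with EGF. This order held for 11% of all genes tested. Relative to the mean with EGF, the median member stood at -1.07 and -0.95 in the control libraries without EGF (A, C), and at -0.23, -0.32 and -0.48 in the BRCA2 siRNA libraries without EGF (A, B, C). All 42 members were below that mean in both of the former, and 34, 39 and 41 in the latter. The median of all genes stayed within 0.01 of 0 in each of these libraries. Among the BRCA2 siRNA libraries without EGF, the median member was thus highest in A and lowest in C. Members without the full order included FOXM1, PLK1, TPX2, KIF4A and CENPF, in which at least 1 BRCA2 siRNA library without EGF reached the range with EGF.

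Members that responded more with control siRNA also tended to respond more with BRCA2 siRNA. Across the 42, Pearson's r between the withdrawal differences was 0.80 and Spearman's rho 0.83. Genes are not independent replicates, and r over all genes tested was 0.83. Within replicates, the median withdrawal difference with control siRNA was -1.14 in A and -0.90 in C, with all 42 lower in each. With BRCA2 siRNA it was -0.40 in A, -0.16 in B and -0.51 in C, with 38, 34 and 42 members lower. The within-replicate values for BRCA2 siRNA with EGF were 0.08, 0.02 and 0.03.

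The libraries with EGF differed among themselves in the same members under both siRNAs. Replicate B was below replicate C in 29 of 42 members with control siRNA and in 29 of 42 with BRCA2 siRNA. The medians were -0.10 and -0.14, against 0.02 and 0.00 over all genes tested. As B minus C with control and with BRCA2 siRNA, MKI67 differed by -0.96 and -0.47, MAD2L1 by -0.64 and -0.60, DLGAP5 by -0.57 and -0.66, and FOXM1 by -0.49 and -0.42. CENPA (0.41 and 0.19), NEK2 (0.35 and 0.30), HMMR (0.33 and 0.17) and NDC80 (0.31 and 0.32) were higher in B. The sign was the same in 36 of 42 members, with r = 0.87 and rho = 0.86 across them, against r = 0.76 over all genes tested. These points share their libraries, and no test was made. Without EGF, in the BRCA2 siRNA libraries, B was above C in 40 of the 42, with a median of 0.18, against 0.00 over all genes tested. Signs were not counted over all genes. The centring of the deposited table on replicate A hides differences between A and the others but leaves those between B and C. The genes with a large gap between B and C, such as MKI67, MAD2L1 and DLGAP5, are those with the widest errors in the comparisons above.

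**Figure D4:**
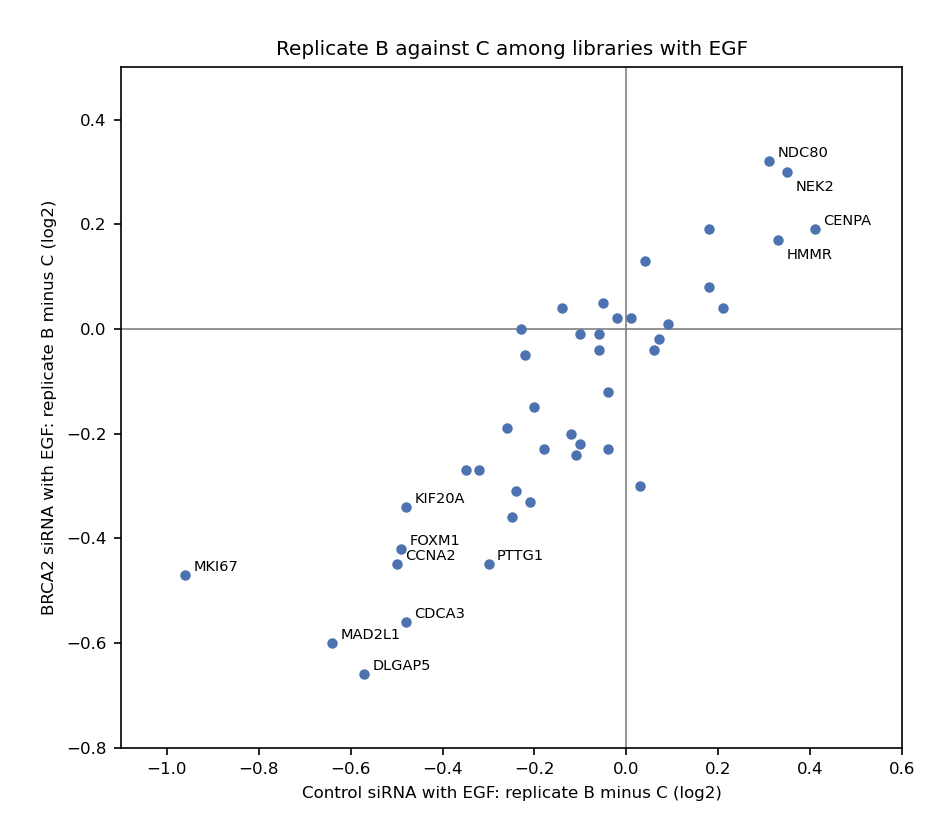
Difference between replicates B and C among libraries with EGF, with control siRNA (horizontal axis) and with BRCA2 siRNA (vertical axis), in log2 units; each point is 1 of the 42 genes. The points run from MKI67, MAD2L1 and DLGAP5 at the lower left, low in B under both siRNAs, to NDC80, NEK2, HMMR and CENPA at the upper right.

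The responses were also set beside the promoter letters. With control siRNA the median withdrawal difference was -0.95 in the 27 members with CHR letters in a promoter window and -1.06 in the 8 members without, which include CCNA2, CCNB1, AURKB and KIF20A. With BRCA2 siRNA the medians were -0.33 and -0.45, and without EGF the BRCA2 siRNA difference had a median of 0.67 in both. CDC20 and MKI67, whose sequences are printed above, both hold TTTGAA and differ in the response, at -1.53 and -0.34. Only the letters TTTGAA and TTCGAA were searched, so a CHR of other letters would be counted as absent. These medians are a description, with no test.

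Other genes of the same machinery were counted in lists that leave out the 42 members. With control siRNA most of the genes for entry into mitosis, the kinetochore, the spindle and the anaphase-promoting complex fell without EGF, where 26.1% of all genes fell. With BRCA2 siRNA those that fell were a minority of each of these lists, but a larger share than the 13.8% of all genes. For the counts below, 11.2% of all genes were higher under BRCA2 siRNA without EGF, and 1.38% passed upwards in the interaction. Of 16 other regulators of entry into mitosis, 13 fell on withdrawal with control siRNA and 1 rose. The falls with the smallest p were CKS1B (-1.23 ± 0.13), a close relative of CKS2, and MELK (-1.01 ± 0.11), a kinase. The rise was WEE1 (0.94 ± 0.14, adjusted p = 0.000347), the kinase that inhibits CDK1, named here after its value was seen. WEE1 read 11.46, 11.59 and 11.94 in control libraries with EGF and 12.63 and 12.57 without. It rose with BRCA2 siRNA too (0.42 ± 0.13, adjusted p = 0.0336) and was lower under BRCA2 siRNA without EGF (-0.53 ± 0.14, adjusted p = 0.025). With BRCA2 siRNA 7 of the 16 fell, among them CKS1B (-0.71 ± 0.12) and MNAT1 (-0.60 ± 0.09), a subunit of the CDK-activating kinase. Without EGF 10 of 16 were higher under BRCA2 siRNA, among them MELK (0.74 ± 0.11) and PKMYT1 (0.82 ± 0.15), a further CDK1 inhibitor. In the interaction 2 passed, PKMYT1 (0.95 ± 0.20, adjusted p = 0.0333) and MELK (0.66 ± 0.15, adjusted p = 0.0373).

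Of 36 other centromere and kinetochore genes, 24 fell with control siRNA and 1, CENPC (0.32 ± 0.10), rose. HJURP, the chaperone of CENPA, fell by 1.19 ± 0.10 (2.29-fold, adjusted p = 1.2e-05), and SKA1, which couples kinetochores to microtubules, fell by 1.57 ± 0.17 (2.98-fold, adjusted p = 3.87e-05). With BRCA2 siRNA 10 of 36 fell and 0 rose, among them HJURP (-0.53 ± 0.09) and CENPH (-0.61 ± 0.12). Without EGF 21 of 36 were higher under BRCA2 siRNA, among them CENPU (0.84 ± 0.11) and SGO1 (0.93 ± 0.13), the protector of centromeric cohesion. Of the 4 called in the interaction, HJURP (0.66 ± 0.13), SGO1 (0.85 ± 0.17), CENPU (0.70 ± 0.15) and SKA1 (0.95 ± 0.22) were all higher. The list had medians of -0.68 and -0.22 for the withdrawals, against -0.97 and -0.40 for the 42 members.

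Of 23 other spindle and cytokinesis genes, 19 fell with control siRNA, among them KNSTRN (-1.23 ± 0.11) and CEP55 (-1.21 ± 0.13), a protein of the final cut between daughter cells. NUMA1, which anchors spindle poles and is also present in interphase nuclei, was the 1 that rose (0.72 ± 0.08 with control siRNA and 0.37 ± 0.07 with BRCA2 siRNA, adjusted p = 5.91e-05 and 0.00553). With BRCA2 siRNA 9 of 23 fell. Without EGF 18 were higher under BRCA2 siRNA, among them KNSTRN (0.73 ± 0.11) and TROAP (0.67 ± 0.10), and 1, NUMA1 (-0.37 ± 0.08), was lower. The 4 called in the interaction were TROAP (0.73 ± 0.14), KIF22 (0.59 ± 0.12), KIF14 (0.66 ± 0.15) and KNSTRN (0.65 ± 0.15). Of 8 condensin subunits 4 fell with control siRNA, NCAPG (-1.09 ± 0.12), SMC4 (-0.57 ± 0.11), NCAPG2 (-0.55 ± 0.14) and NCAPH (-0.82 ± 0.21). Those 4 were also higher under BRCA2 siRNA without EGF, by 0.86 ± 0.12, 0.50 ± 0.11, 0.56 ± 0.14 and 0.77 ± 0.21. NCAPG was the 1 of 8 that fell with BRCA2 siRNA (-0.43 ± 0.11), a share near the 13.8% of all genes, and 0 passed the interaction.

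Core subunits and partners of the anaphase-promoting complex moved less as a list, with 11 of 18 lower with control siRNA and a median of -0.40. UBE2S, which extends ubiquitin chains on the complex, fell by 1.59 ± 0.18 (3.01-fold, adjusted p = 6.22e-05), and ANAPC13, a small core subunit, fell by 0.96 ± 0.10 (1.94-fold, adjusted p = 3.6e-05), while ANAPC2 rose (0.48 ± 0.17 with control siRNA and 0.55 ± 0.15 with BRCA2 siRNA). With BRCA2 siRNA 8 of 18 fell, UBE2S among them (-0.74 ± 0.17), and without EGF 7 were higher under BRCA2 siRNA, again with UBE2S (0.84 ± 0.18). The 1 called in the interaction was ANAPC13 (0.57 ± 0.13, adjusted p = 0.0452). Of 14 genes of MuvB, its MYB and E2F4 partners and pocket proteins, 6 fell with control siRNA, among them E2F4 (-0.86 ± 0.11) and LIN54 (-0.67 ± 0.09), the subunit that reads the CHR, and TFDP2 rose (0.40 ± 0.11). With BRCA2 siRNA E2F5 (-0.52 ± 0.13), LIN9 (-0.32 ± 0.10) and LIN54 (-0.25 ± 0.08) fell, 3 of 14 where 13.8% of all genes fell. Without EGF, MYBL2 (1.10 ± 0.18), E2F4 (0.55 ± 0.11), MYBL1 (0.54 ± 0.12), LIN54 (0.53 ± 0.09) and LIN9 (0.47 ± 0.11) were higher under BRCA2 siRNA and E2F5 (-0.45 ± 0.14) was lower. E2F4 was the 1 called in the interaction (0.66 ± 0.15, adjusted p = 0.0435).

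The preceding phases of the cycle were counted too. Of 32 genes of G1/S and DNA replication tested, 8 fell with control siRNA, a share near the 26.1% of all genes. None rose, where 24.7% of all genes did, and the median difference of the 32 was -0.37. Those that fell included CDC45 (-1.50 ± 0.15) and CDC6 (-1.05 ± 0.14), which act in loading and firing the replicative helicase. With BRCA2 siRNA CDC45 (-0.57 ± 0.14), RFC4 (-0.49 ± 0.12), RRM1 (-0.33 ± 0.10) and RFC2 (-0.32 ± 0.11) fell, and 0 rose. These 4 of 32 are a share near the 13.8% of all genes. Without EGF 9 of 32 were higher under BRCA2 siRNA, where 11.2% of all genes were, with CDC6 at 1.02 ± 0.14 and CDC45 at 1.02 ± 0.15. Those 2 were also called in the interaction (0.93 ± 0.19 and 0.93 ± 0.21). The median of the 32 without EGF was 0.70, against 0.67 for the 42 members. In 31 of the 32, every BRCA2 siRNA library lay above both control libraries, which held for 33.2% of all genes. The median interaction of the 32 was 0.47. Across these genes, the SD of the control libraries with EGF ran from 0.07 to 1.11. None of these lists had a member called between the siRNAs in the presence of EGF.

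Some members have near-identical copies to which short reads can be misassigned. PTTG3P, a copy of PTTG1, read -1.04 to -0.83, UBE2CP4 -0.82 to -0.24, KIF4B 2.29 to 3.13 and UBE2CP3 2.37 to 3.53. UBE2CP3 was higher without EGF (3.53 and 3.25 in the control libraries) than with it (2.37 to 2.65 in the control libraries), unlike UBE2C itself, which fell. These values lie near or under the minimum of 3.3, and UBE2CP3 was not tested. Of the 6 copies listed 1 was tested, and it fell on withdrawal with control siRNA (-1.23) and with BRCA2 siRNA (-0.71). These differences match those given above for CKS1B and add nothing to them. Whether reads were counted by strand or shared between overlapping genes is not given in the sources used here.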

How the data were processed

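Total RNA of hTert-HME1 cells was depleted of ribosomal RNA (RiboZero) and made into libraries with ScriptSeq v2, per the labels' protocols. The authors deposited 1 table of log2 values for 40460 Ensembl genes in 11 libraries, between -2.941 and 20.62, used here as they are. The submitters' processing notes name hg19, TopHat2 2.0.11, DESeq2 and limma, with no role. Which counter, annotation and log2 transform were used is not given in the sources used here, so depth is unknown and differences of weak genes may be compressed. In every gene the mean of the 4 replicate A libraries equalled that of the 7 B and C libraries (largest difference 7.18e-09), so the values had been centred for A, a step the sources do not name and the test does not count.

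Symbols were matched through a gene name table (37585 of 40460 genes, 92.9%). Genes with 3.3 (the log2 of 10) or more in at least 2 libraries were tested (17950). A model of 4 groups was fitted to all 11 libraries with limma 3.58.1 in R 4.3.3, moderated by empirical Bayes with a trend of variance on mean (7 residual degrees of freedom). Tests are two-sided, with Benjamini-Hochberg adjustment over all genes tested and a threshold of 0.05. Errors after ± are moderated standard errors unless given as SD. The fit was tested on simulated data with known changes and independent noise in each library. That simulation held neither the centring for A nor deviations shared between libraries, so it cannot show how the fit behaves under them. Promoter sequences are RefSeq's on GRCh38.p14.

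The members and lists were chosen with earlier results of these data known. By rule, values in each library are given for BRCA2, for the smallest p of each role, for the largest differences of each comparison, for members called in the interaction and for members that differ in call from most of their role. From each other list, genes with the 4 smallest p per comparison may be named. Genes outside that rule (WEE1, CENPC, NUMA1, ANAPC2, TFDP2, E2F5, LIN9 and others named to complete a count of 5 or fewer) were named after their values were seen. The alternatives tried were other filters, other normalizations, no trend, only the groups compared, terms for the replicates, only replicates B and C, and leaving out each library.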

Additional observations from a re-analysis of the deposited data

Results flagged for a closer look

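The withdrawal response of 15 members differed between the siRNAs by the interaction term (withdrawal difference under BRCA2 siRNA less the one under control siRNA, limma, adjusted over all genes tested). On the log2 scale the differences were 1.08 for FOXM1, 1.04 for CDC20, 0.88 for AURKB, 0.81 for CENPA, 0.78 for PLK1, 0.77 for UBE2C, 0.74 for CDC25C, 0.73 for KIF23, 0.72 for TPX2, 0.70 for AURKA, 0.67 for ECT2, 0.66 for CCNB2, 0.64 for CENPE, 0.64 for CDCA8 and 0.59 for KIF2C. All were smaller falls with BRCA2 siRNA. BRCA2 RNA was no lower under the BRCA2 siRNA label, and its own interaction was 0.69 (adjusted p = 0.0532). The calls were lost when single libraries were left out, as given in the report.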

How the results depend on the processing

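Each count of called members was recomputed under up to 20 alternatives. No called member changed sign under any of them in any comparison. The median difference of the 42 stayed between -1.04 and -0.80 for EGF withdrawal with control siRNA, between -0.46 and -0.26 for withdrawal with BRCA2 siRNA, between 0.54 and 0.75 for BRCA2 siRNA without EGF and between 0.49 and 0.70 for the interaction. With only replicates B and C (3 residual degrees of freedom, and 1 control library without EGF, assumed to vary like the other groups), 24 members fell on withdrawal with control siRNA and 0 with BRCA2 siRNA, 0 were higher under BRCA2 siRNA without EGF and 0 passed the interaction. All genes then gave 902 lower and 1172 higher (4682 and 4441 in the report's fit), 14 and 33 (2474 and 2399), 0 and 0 (1681 and 2007), and 0 and 0 (347 and 248). Other settings moved these counts too. A stricter filter (11959 genes tested) gave 2465 higher on withdrawal with control siRNA and 1568 higher with BRCA2 siRNA, and the median of all genes was then -0.16 in the first. Only the groups compared gave 2863 lower and 3915 higher for BRCA2 siRNA without EGF, and without replicate A or C of the control libraries without EGF these were 378 and 246, or 552 and 630. In the interaction no trend gave 269 and 106, no filter 299 and 121, and a replicate block 488 and 442. With only the groups compared, 1 member (MKI67) rose on withdrawal with BRCA2 siRNA, and without a mean-variance trend 6 passed the interaction. Leaving out 1 library at a time gave 38 to 40 lower with control siRNA, 13 to 28 lower and 0 to 1 higher with BRCA2 siRNA, 11 to 41 higher under BRCA2 siRNA without EGF and 0 to 21 in the interaction. The count of 0 for BRCA2 siRNA with EGF stayed at 0 under each alternative.

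Replicate letters were checked for pairing: of 15 pairs of libraries that share a letter, the 6 of replicate A (r from -0.37 to -0.12) cannot show pairing, since the table was centred for A. Of the 9 of B or C (r from -0.13 to 0.70), 2 had deviations that correlated over 0.1, the B pair and the C pair among libraries with EGF. The letters were not taken as pairs. A fit with the letters as a replicate block gave 40 and 26 members lower in the withdrawals, 41 higher under BRCA2 siRNA without EGF and 21 in the interaction, and it changed no direction of a called member.

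Of 5103 values of named genes under these alternatives, 4381 kept their direction and call, 644 lost the call, 57 gained one and 21 changed sign, none of the last being called in the fit of the report. With quantile normalization these were CDC25B (0.01 and 0.08 in the withdrawals with control and BRCA2 siRNA, -0.07 for BRCA2 siRNA without EGF) and, for withdrawal with BRCA2 siRNA, FOXM1 (0.06), TPX2 (0.05), NUSAP1 (0.01), CENPF (0.13), INCENP (0.02), TOP2A (0.03) and BRCA2 (0.02). With libraries centred on their median KIF20A changed sign for withdrawal with BRCA2 siRNA (-0.02). Leaving out 1 library gave sign changes within these ranges: for withdrawal with BRCA2 siRNA, KIF20A from -0.11 to 0.09 and FOXM1 from -0.18 to 0.07, for BRCA2 siRNA with EGF, MKI67 from -0.34 to 0.14 and BRCA2 from -0.06 to 0.11, and for BRCA2 siRNA without EGF, CDC25B from -0.02 to 0.11. The cause was not tested.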
